A study of Mus musculus with 7 samples.

Results

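The genes described here encode the subunits of voltage-gated sodium and calcium channels in SMB21, a mouse medulloblastoma cell line. They were taken by symbol: every gene whose symbol begins with Cacna, Cacnb or Cacng, or reads Scn, a digit and a or b. That gave 40 of the 24047 genes in the count table, and 31 of the 40 had 10 or more reads summed over the 7 libraries and were tested. Channel levels were compared between cells that received a guide against Ofd1 (sgOfd1, 3 libraries), a guide against Kif3a (sgKif3a, 2 libraries) or a guide against GFP as the control (sgGFP, 2 libraries). All 7 libraries came from the same Ptch mutant line on the Ptch1tm1Mps/J background, grown as neurospheres, so the controls carry the Ptch mutation and a lentiCRISPR vector too. RNA was collected 2 weeks after the virus was added. The labels give adult as the age, call the libraries biological replicates and do not say whether clones or mixed populations were sequenced. The p-values measure the spread between these samples of 1 line.

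Voltage-gated sodium channels open when a membrane depolarises and carry the upstroke of the action potential. Their alpha subunit forms the pore, and beta subunits are single-pass membrane proteins that tune gating and surface level. Voltage-gated calcium channels let calcium in on depolarisation and so couple electrical activity to secretion and gene expression. Their alpha1 subunit forms the pore and sets the type (L, P/Q, N, R or T), while alpha2delta and beta subunits help the pore reach the membrane. Most proteins named gamma are in fact transmembrane AMPA receptor regulatory proteins, which assist glutamate receptors. Granule neuron progenitors, the cells from which Hedgehog-driven medulloblastoma arises, take on these channels as they mature into granule neurons. Cilia, the organelles through which Hedgehog signals pass, are built with the kinesin motor that contains Kif3a, and Ofd1 sits at the centrioles from which they grow.

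The libraries held 17961767 to 23022701 counted reads, of which 8328 to 11276 per library fell on the channel genes. Levels are CPM, read counts scaled to library size with factors from the trimmed mean of M values (TMM). Kif3a had 73.9 and 60.7 CPM in sgKif3a and 104 and 104 CPM in sgGFP, a log2 fold change of −0.62 (edgeR, adjusted p = 0.00147). Ofd1 had 21.0, 19.98 and 22.0 CPM in sgOfd1 and 22.5 and 23.1 CPM in sgGFP, a difference that did not pass the test (edgeR log2 fold change −0.12, adjusted p = 0.406). In sgKif3a, Ofd1 had 31.6 and 29.1 CPM and was called higher than in sgGFP (edgeR log2 fold change 0.41, adjusted p = 0.0138). Set against sgKif3a, sgOfd1 was lower and did not pass (edgeR log2 fold change −0.53, adjusted p = 0.0564). An edit can disrupt a protein without lowering its mRNA, so the Ofd1 level in sgOfd1 does not check the label. The 8 granule neuron progenitor markers were all read, and their levels differed between groups: they summed to 3086 to 3542 CPM in sgOfd1 and 3309 to 3414 CPM in sgKif3a, against 2844 to 2873 CPM in sgGFP, with 4 called higher and 2 lower in each guide group (edgeR). Atoh1, a transcription factor of these progenitors, had 496 to 619 CPM in sgOfd1, 551 to 566 CPM in sgKif3a and 364 to 388 CPM in sgGFP. Gli1 and Mycn, of the same list, ran against the sum. Gli1 had 167 to 325 CPM in sgOfd1, 201 to 310 CPM in sgKif3a and 427 to 476 CPM in sgGFP. Mycn had 48.6 to 57.3 CPM in sgOfd1, 43.3 to 45.3 CPM in sgKif3a and 63.0 to 67.2 CPM in sgGFP. Gabra6, a marker of mature granule neurons, was listed at 0 in all 7. One control library, sgGFP replicate 1, stood apart in a list of 13 microglia and macrophage markers: the list summed to 24.5 CPM there and to 2.95 CPM in sgGFP replicate 2. The same list summed to 3.29 to 4.83 CPM in sgOfd1 and 3.37 to 3.68 CPM in sgKif3a.

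Most pore genes were read at low levels, and 1 member led nearly every subunit class. Levels were divided by the length of merged exons to compare genes (CPM per kb, GENCODE M21 models). Scn8a, the main sodium pore of mature axon initial segments, held 73.8% of the per-kb total of the 10 sodium alpha genes. Scn3b held 83.0% of the total of the 4 sodium beta genes. Among L-type pores Cacna1c held 53.0%, and of the P/Q, N and R types Cacna1a held 50.4% and Cacna1b 49.1%. Cacna1h held 68.4% of the T-type total, Cacna2d1 72.2% of the alpha2delta total and Cacnb3 88.8% of the beta total. Cacng7 held 82.2% of the total of the 6 AMPA receptor regulatory genes. These shares come from mean levels over the 7 libraries and compare genes within a class only, and some differed between groups. Cacna1a held 47.8% in sgOfd1, 47.4% in sgKif3a and 58.5% in sgGFP, and Cacna1b 51.7% in sgOfd1, 52.1% in sgKif3a and 41.1% in sgGFP. These are group means, and the order of this pair also varied between libraries of a guide group. Cacna1a had 6.02 CPM and Cacna1b 3.81 CPM in sgOfd1 replicate 3, against 5.16 and 6.33 CPM in sgOfd1 replicate 2. Neither gene was called. Cacna1h held 63.5% of the T-type total in sgOfd1, 50.7% in sgKif3a and 80.1% in sgGFP. No test was run on the shares.

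**Figure D1:**
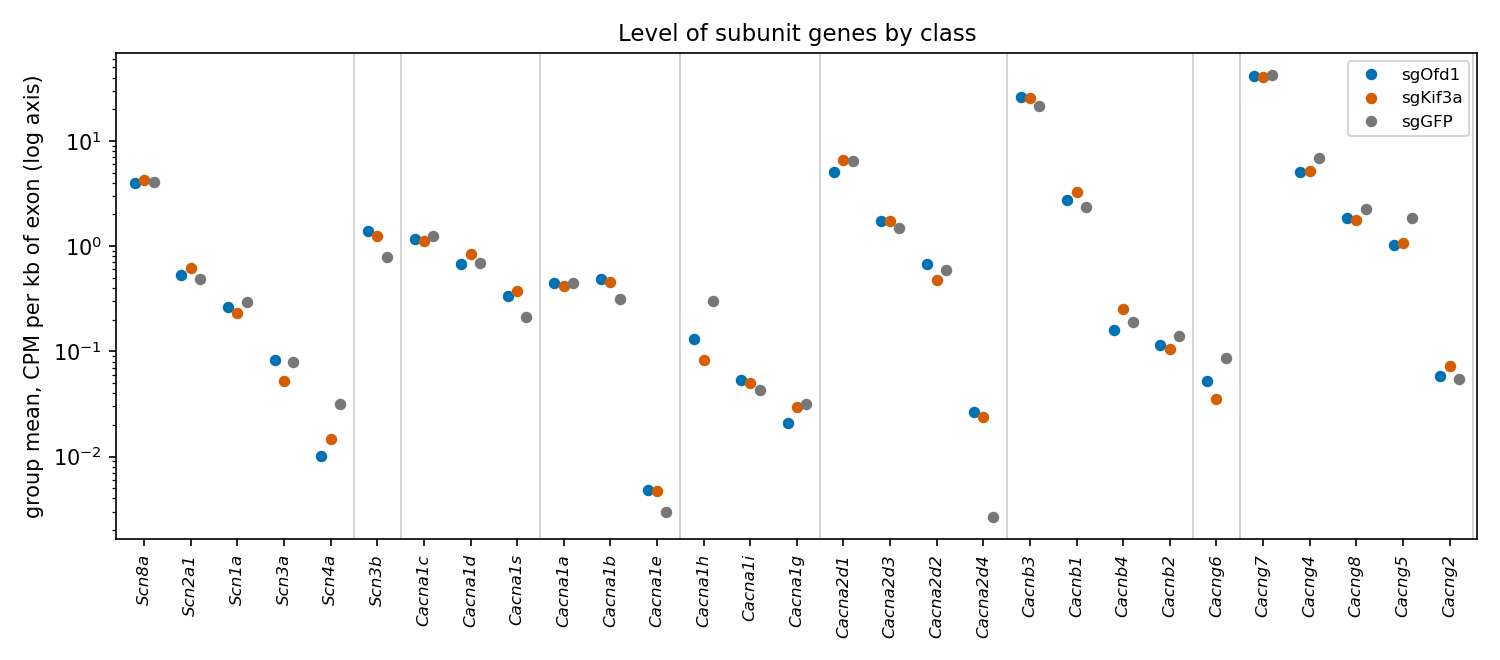
Mean level of tested channel genes in each group, in CPM per kb of exon on a log axis, with genes ordered by level inside each subunit class and classes divided by grey lines. Cacng7 and Cacnb3 stand highest.

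Of the 40 genes, 9 had fewer than 10 summed reads and were not tested. Cacng1, Scn9a, Scn10a and Scn11a had no read in any library, where a count of 0 allows up to 3 reads, or 0.129 to 0.166 CPM; such limits cover counting error only. Scn9a, Scn10a and Scn11a encode pores of peripheral sensory neurons, and Cacng1 the gamma subunit of the skeletal muscle channel. Cacng3 had 6 reads spread over 4 libraries. Of the 31 tested genes, 12 averaged 5 CPM or more and 9 averaged under 1 CPM.

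Against sgGFP, 4 of the 31 channel genes changed in sgOfd1 (12.9%), where 11.7% of all 14588 tested genes did (edgeR quasi-likelihood test, Benjamini-Hochberg adjusted over all tested genes, threshold 0.05). In sgKif3a 4 of 31 changed (12.9%), where 16.4% of all genes did. Each guide had 1 channel gene higher and 3 lower, and the shares of all genes were 5.35% higher and 6.32% lower for sgOfd1, and 7.55% higher and 8.84% lower for sgKif3a. These shares are close to the background, so the counts say nothing particular about channel genes. The median log2 fold change over the 31 genes was −0.03 in sgOfd1 and −0.05 in sgKif3a, and the medians of all tested genes were 0.00 in both. In a test for any difference among the 3 groups, 5 of the 31 passed (16.1%), beside 12.9% of all genes. They included Scn3b, Cacna1h, Cacna2d1 and Cacng5. The counts lean on single libraries, and calls over all tested genes moved with the same libraries. In sgOfd1 against sgGFP, fewer channel genes and fewer of all genes were called without either sgGFP replicate. In sgKif3a against sgGFP, the same held without sgGFP replicate 2 or sgKif3a replicate 1. For any difference, it held without either sgGFP replicate or sgKif3a replicate 1. These fits leave 1 library in a group. Without sgOfd1 replicate 1, 7 channel genes were called in sgKif3a, beside 2862 of all genes. DESeq2 called 5 in sgOfd1 and 3 in sgKif3a with all libraries, beside 1739 and 2167 of all genes. Both comparisons use the same 2 sgGFP libraries, so a control library that is high or low moves both.

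**Figure D2:**
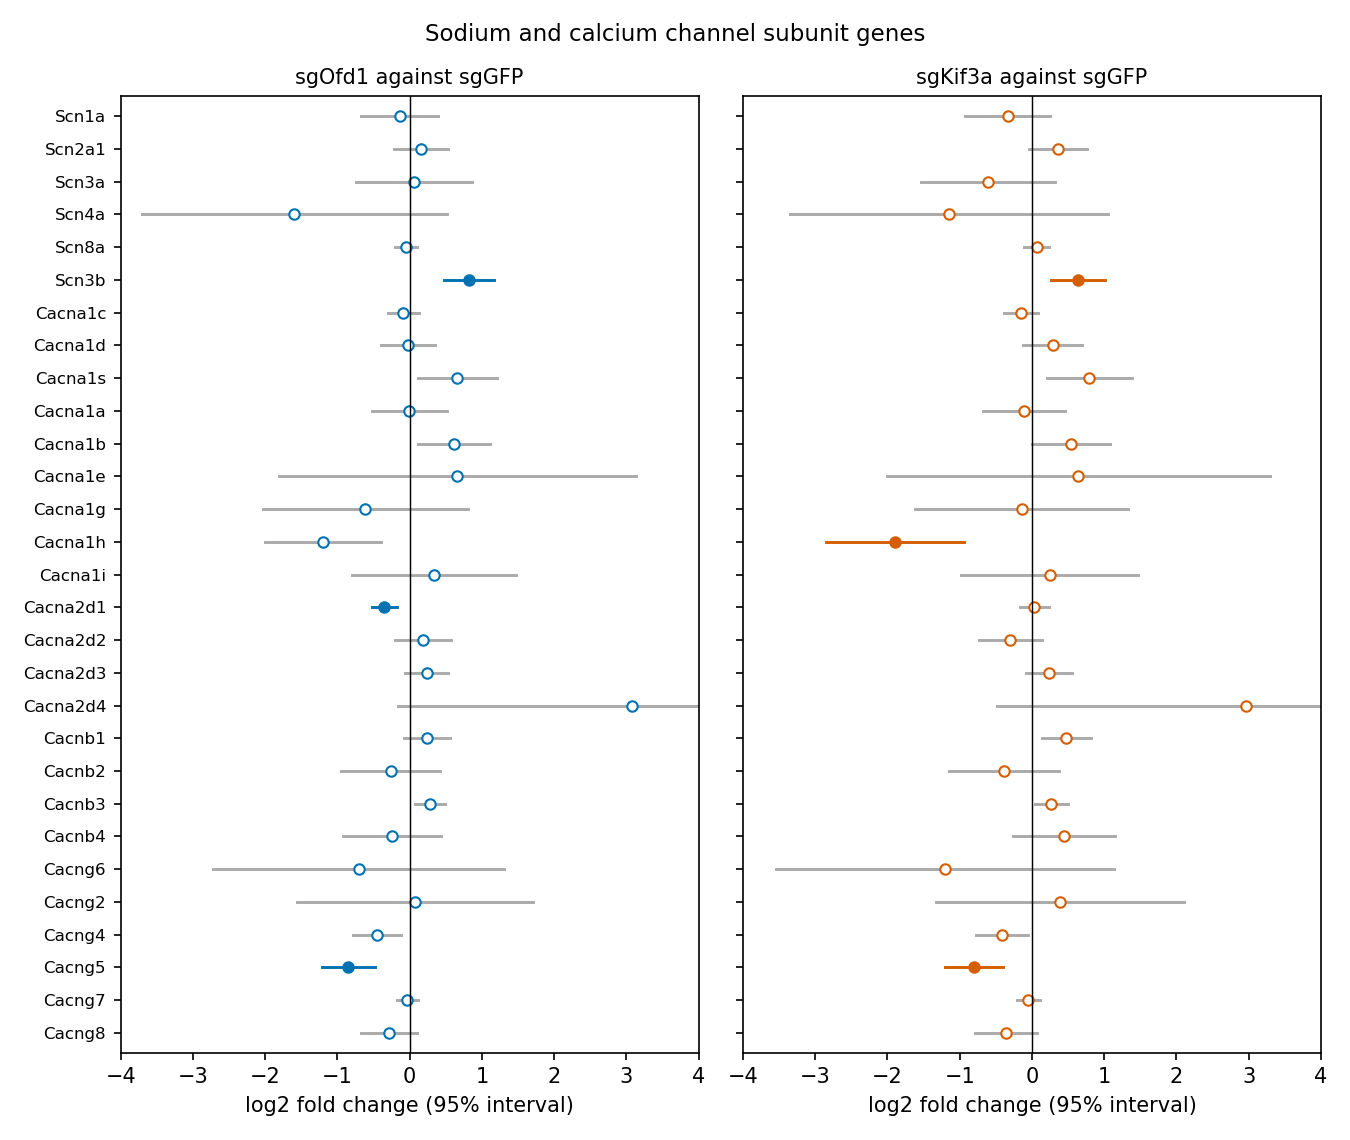
Log2 fold change with its 95% interval for tested channel genes, in sgOfd1 (left) and sgKif3a (right) against sgGFP. Filled points passed the test. Cacna2d4 intervals run past the axis, and the filled point furthest to the left is Cacna1h in sgKif3a.

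Among the sodium pores, Scn8a had 61.8, 65.8 and 59.1 CPM in sgOfd1, 68.0 and 66.5 CPM in sgKif3a, and 62.9 and 65.8 CPM in sgGFP. The sgOfd1 libraries overlapped the controls, and both sgKif3a libraries lay above them without passing the test. The 95% interval of the log2 fold change was −0.21 to 0.11 in sgOfd1 and −0.11 to 0.24 in sgKif3a. Scn2a1, the Scn2a of current annotation and an early pore of developing axons, had 5.66 to 8.22 CPM in sgOfd1, 7.57 to 8.24 CPM in sgKif3a and 5.71 to 6.58 CPM in sgGFP, and was not called. Scn1a, Scn3a and Scn4a averaged 2.95 CPM or less and were not called in any comparison.

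Of the sodium beta genes, Scn3b, a beta subunit abundant in embryonic brain, was the 1 channel gene called higher with either guide. Its levels were 8.81, 7.38 and 6.84 CPM in sgOfd1, 7.16 and 6.33 CPM in sgKif3a, and 4.32 and 4.36 CPM in sgGFP. All 5 libraries with an Ofd1 or Kif3a guide lay above both controls. The log2 fold change was 0.82 (SE 0.157, adjusted p = 0.00779, edgeR) in sgOfd1 and 0.64 (SE 0.170, adjusted p = 0.0270, edgeR) in sgKif3a. Markers of granule neuron differentiation, 8 genes, summed to 768 to 883 CPM in sgOfd1 and 848 to 947 CPM in sgKif3a, against 585 to 596 CPM in sgGFP. Of these, 4 were called higher and 1 lower in sgOfd1, and 3 higher and 1 lower in sgKif3a (edgeR). Rbfox3, a marker of postmitotic neurons, ran against the sum, with 185 to 228 CPM in sgOfd1 and 185 to 225 CPM in sgKif3a, against 277 to 289 CPM in sgGFP. The progenitor markers summed higher with the same guides, as given above, and the part of either list in the result was not tested. In bulk RNA fewer cells of a type and less RNA per cell cannot be told apart. The sgOfd1 call was lost without sgGFP replicate 1 (adjusted p = 0.0614). The sgKif3a call was lost in DESeq2 (0.0810) and without sgGFP replicate 1 (0.145), sgGFP replicate 2 (0.119), sgKif3a replicate 1 (0.194) or sgKif3a replicate 2 (0.0519). Over 14 alternative settings the adjusted p ran from 0.00120 to 0.0614 in sgOfd1 and from 0.0120 to 0.194 in sgKif3a.

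**Figure D3:**
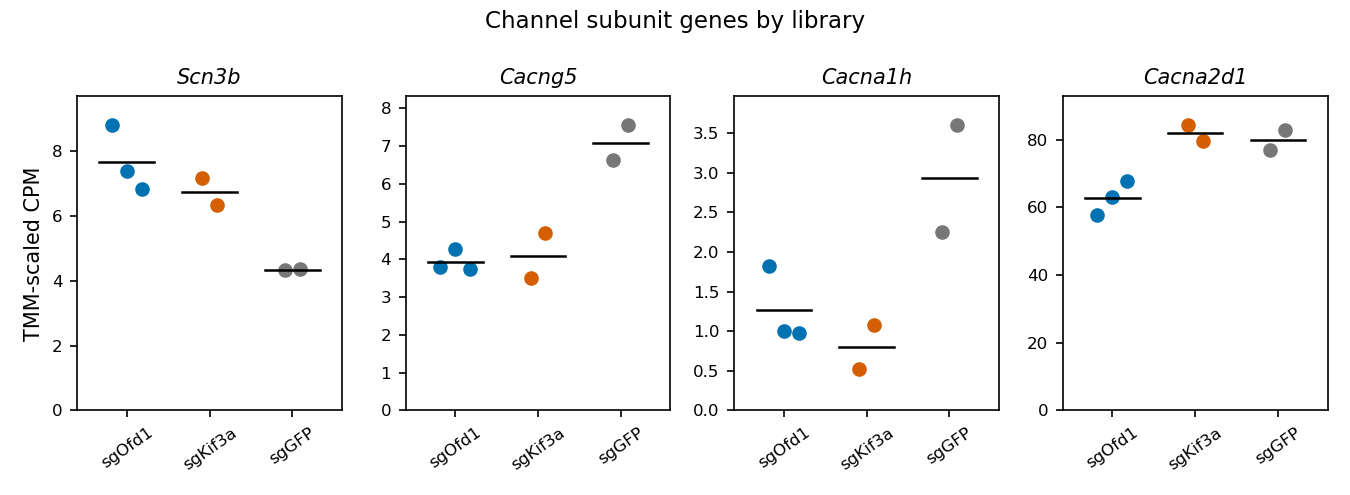
TMM-scaled CPM in each library for 4 channel genes called in at least 1 comparison, with sgOfd1 and sgKif3a left of sgGFP, points for libraries and bars for group means. Scn3b is higher and Cacng5 lower with both guides, while Cacna2d1 is below both sgGFP libraries in the 3 sgOfd1 libraries.

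Among the calcium pores, Cacna1h leads the T type, which opens near the resting potential, and was read at a low level. It had 1.82, 0.999 and 0.978 CPM in sgOfd1, 0.518 and 1.08 CPM in sgKif3a, and 2.26 and 3.60 CPM in sgGFP, from 12 to 72 reads per library. Neither guide group overlapped the controls. It fell in sgKif3a (log2 fold change −1.90, SE 0.434, adjusted p = 0.0136, edgeR). In sgOfd1 the log2 fold change was −1.20 (SE 0.365) and did not pass (edgeR adjusted p = 0.0570); it passed under filterByExpr (0.0383), with all genes of 1 or more reads tested (0.0212), without sgGFP replicate 1 (0.0434) or without sgOfd1 replicate 1 (0.0352), in a range of 0.0212 to 0.320. The sgKif3a call was lost without sgGFP replicate 2 (0.0599) or sgKif3a replicate 1 (0.159), in a range of 0.00201 to 0.159. The exons of Cacna1h overlap those of Tpsg1 on the opposite strand in GENCODE M21, and Tpsg1 had 0 reads in all 7 libraries.

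No other calcium pore gene was called in the main edgeR fit (all libraries, group means, summed count of 10 or more). Cacna1c, the main L-type pore of neurons and heart, had 22.6 to 27.0 CPM in sgOfd1, 22.9 to 24.0 CPM in sgKif3a and 24.9 to 27.4 CPM in sgGFP. Cacna1d, another L-type pore, had 6.49 to 10.3 CPM in sgOfd1, 10.1 to 11.05 CPM in sgKif3a and 8.64 to 8.71 CPM in sgGFP. Cacna1a, the P/Q-type pore of cerebellar synapses, had 4.13 to 6.02 CPM in sgOfd1, 3.50 to 6.06 CPM in sgKif3a and 4.71 to 5.51 CPM in sgGFP. Cacna1s, the pore of skeletal muscle, had 2.01 to 2.39 CPM in sgOfd1, 2.20 to 2.65 CPM in sgKif3a and 1.28 to 1.502 CPM in sgGFP. Its log2 fold change was 0.66 in sgOfd1 (adjusted p = 0.108, edgeR) and 0.80 in sgKif3a (adjusted p = 0.0635, edgeR). In sgKif3a it passed under filterByExpr and with a replicate block. The 8 muscle markers summed to 0.463 to 0.721 CPM in sgOfd1, 0.561 to 0.811 CPM in sgKif3a and 0.295 to 0.601 CPM in sgGFP, with Myod1 at 0 in all libraries. Cacna1b, the N-type pore, averaged 4.26 CPM over all libraries and was not called (log2 fold change 0.62 in sgOfd1 and 0.55 in sgKif3a). It passed in sgOfd1 without sgOfd1 replicate 3 and with a replicate block.

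Of the alpha2delta genes, Cacna2d1, the subunit bound by gabapentin, was lower with the Ofd1 guide, and its level with the Kif3a guide overlapped the controls. It had 57.7, 62.9 and 67.9 CPM in sgOfd1, 84.3 and 79.5 CPM in sgKif3a, and 77.0 and 83.0 CPM in sgGFP. The sgOfd1 libraries did not reach the other 4. The log2 fold change against sgGFP was −0.35 (SE 0.0814, adjusted p = 0.0202, edgeR) in sgOfd1 and 0.03 (95% interval −0.16 to 0.23, adjusted p = 0.828, edgeR) in sgKif3a. Set directly against each other, sgOfd1 and sgKif3a differed by −0.38 on the log2 scale (SE 0.0812) and the test was not passed (edgeR adjusted p = 0.169). It was passed in 3 of 14 settings. These were DESeq2 (0.0174), edgeR with all genes of 1 or more reads tested (0.0442) and edgeR with a replicate block (0.0111). The call against sgGFP was lost without sgGFP replicate 1 (adjusted p = 0.0578), sgGFP replicate 2 (0.165), sgOfd1 replicate 1 (0.0528) or sgOfd1 replicate 2 (0.0580), in a range of 0.00131 to 0.165. Cacna2d3, at 13.2 to 17.1 CPM in sgOfd1, 13.6 to 16.6 CPM in sgKif3a and 12.4 to 13.4 CPM in sgGFP, was not called. Cacna2d2 and Cacna2d4 were not called either. Cacna2d4 had 9, 0 and 6 reads in sgOfd1, 8 and 2 in sgKif3a, and 0 and 1 in sgGFP, so sgOfd1 overlapped the controls.

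The sequence upstream of Cacna2d1 and of Cacng5 is shown because the pair moved with a guide and has promoter entries in RefSeq (GRCm38.p6). Each run is the 250 bases before the start, 5′ to 3′ along the gene, and capitals mark CpG dinucleotides, the sites of DNA methylation.
Cacna2d1, chr5:15934441-15934690, plus strand: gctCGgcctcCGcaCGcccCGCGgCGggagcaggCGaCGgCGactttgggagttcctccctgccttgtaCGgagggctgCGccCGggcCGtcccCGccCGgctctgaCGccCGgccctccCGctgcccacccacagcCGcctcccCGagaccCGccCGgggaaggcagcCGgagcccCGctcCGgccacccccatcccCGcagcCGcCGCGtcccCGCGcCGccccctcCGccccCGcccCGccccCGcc
Cacng5, first start, chr11:107915056-107915305, minus strand: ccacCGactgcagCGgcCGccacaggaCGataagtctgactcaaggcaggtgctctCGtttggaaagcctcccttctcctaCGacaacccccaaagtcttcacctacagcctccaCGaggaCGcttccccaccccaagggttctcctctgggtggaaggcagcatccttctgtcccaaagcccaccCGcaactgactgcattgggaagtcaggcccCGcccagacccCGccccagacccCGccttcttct
Cacng5, second start, chr11:107911363-107911612, minus strand: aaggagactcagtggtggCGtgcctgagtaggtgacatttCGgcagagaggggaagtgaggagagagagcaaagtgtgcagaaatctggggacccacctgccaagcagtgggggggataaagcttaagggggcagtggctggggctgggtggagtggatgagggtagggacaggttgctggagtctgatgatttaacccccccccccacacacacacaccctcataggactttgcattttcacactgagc
The Cacna2d1 window is CpG-dense, with 36 CpG and 82.4% GC, and 2.58% of the 32851 windows in the RefSeq table had as many CpG. The first Cacng5 window has 12 CpG and 62.0% GC (33.5% of windows had as many), and the second 2 CpG and 56.8% GC (81.2% had as many). The median window has 6 CpG and 52.4% GC. The letters TGGGTGGTC (GLI binding motif, in 0.225% of all windows), TTCAGCACC (left part of the REST element, in 0.301%), ACGTG (hypoxia response core, in 16.6%) and CAGCTG (E-box, in 13% of windows) were searched on both strands, with no overlap removed, and none matched in these 3 windows.

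Of the calcium beta genes, Cacnb3, the most abundant of the cytosolic beta subunits, had 118, 101 and 94.1 CPM in sgOfd1, 106 and 99.8 CPM in sgKif3a, and 89.1 and 81.8 CPM in sgGFP. All libraries with an Ofd1 or Kif3a guide lay above both controls, and the difference did not pass the test in either comparison in the main edgeR fit. In sgOfd1 it passed in DESeq2, with all genes of 1 or more reads tested, with a replicate block and without sgOfd1 replicate 3. In sgKif3a it passed with only the 2 groups in the fit, with a replicate block and without sgOfd1 replicate 1. Its log2 fold change was 0.29 in sgOfd1 (95% interval 0.08 to 0.50, adjusted p = 0.0756, edgeR) and 0.27 in sgKif3a (95% interval 0.04 to 0.50, adjusted p = 0.0990, edgeR). Cacnb1 had 10.3 to 14.2 CPM in sgOfd1, 14.4 to 15.1 CPM in sgKif3a and 9.72 to 11.4 CPM in sgGFP, with adjusted p = 0.0591 in sgKif3a (edgeR). It passed there under library totals, with all genes of 1 or more reads tested, with a replicate block, with only the 2 groups in the fit, and without sgOfd1 replicate 1 or 3. Cacnb2 had 1.08 to 1.96 CPM and Cacnb4 1.33 to 2.80 CPM over the 7 libraries, and neither was called.

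Of the gamma genes, Cacng5, an AMPA receptor regulatory protein, was lower with both guides. It had 3.79, 4.27 and 3.76 CPM in sgOfd1, 3.50 and 4.70 CPM in sgKif3a, and 6.63 and 7.56 CPM in sgGFP. No library with an Ofd1 or Kif3a guide reached the controls. The log2 fold change was −0.85 (SE 0.168, adjusted p = 0.00942, edgeR) in sgOfd1 and −0.80 (SE 0.185, adjusted p = 0.0142, edgeR) in sgKif3a. Markers of the oligodendrocyte lineage, 6 genes and mostly Pdgfra, summed to 95.5 to 182 CPM in sgOfd1 and 103 to 144 CPM in sgKif3a, against 270 to 284 CPM in sgGFP, with Sox10 and Mog at 0 in all libraries; their part in the result was not tested. The sgOfd1 call was lost without sgGFP replicate 2 (adjusted p = 0.0802), and the sgKif3a call without sgGFP replicate 2 (0.0930) or sgKif3a replicate 1 (0.145). The 14 settings gave 0.00166 to 0.0802 in sgOfd1 and 0.00362 to 0.145 in sgKif3a.

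Cacng4, which neighbours Cacng5 on chromosome 11 in RefSeq GRCm38.p6 with Cacng1 on its other side, had 14.5, 21.6 and 18.2 CPM in sgOfd1, 17.0 and 20.1 CPM in sgKif3a, and 23.2 and 26.3 CPM in sgGFP. Its groups did not overlap with sgGFP, and it was not called (log2 fold change −0.45, adjusted p = 0.0739 in sgOfd1, and −0.42, adjusted p = 0.104 in sgKif3a, edgeR). It passed in sgOfd1 with all genes of 1 or more reads tested, with a replicate block and without sgOfd1 replicate 2. In sgKif3a it passed with only the 2 groups in the fit, with a replicate block and without sgOfd1 replicate 1. Cacng7, the most abundant gene of the family per kb, had 102, 99.3 and 99.7 CPM in sgOfd1, 95.3 and 103 CPM in sgKif3a, and 105 and 101 CPM in sgGFP. Its 95% interval was −0.18 to 0.11 in sgOfd1 and −0.21 to 0.10 in sgKif3a on the log2 scale. Cacng7 and Cacng8 are neighbours on chromosome 7, and Cacng8, at 3.59 to 4.79 CPM in sgOfd1, 3.71 to 4.60 CPM in sgKif3a and 5.16 to 5.40 CPM in sgGFP, was not called.

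Between the guides, 0 of 31 channel genes were called (edgeR, sgOfd1 against sgKif3a), beside 0.103% of all tested genes, 15 in all. At an unadjusted p under 0.05 there were 3 channel genes, and DESeq2 called 1, Cacna2d1. A miss here does not show that the guides act alike: the 95% interval of the difference was −0.14 to 0.51 for Scn3b and −0.44 to 0.34 for Cacng5 on the log2 scale. Libraries of the 2 groups did not overlap for 6 of 31 channel genes (19.4%), beside 22.5% of all genes. Against sgGFP the libraries did not overlap for 12 channel genes in sgOfd1 (38.7%), beside 46.4% of all genes, and for 19 in sgKif3a (61.3%), beside 62.8%.

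**Figure D4:**
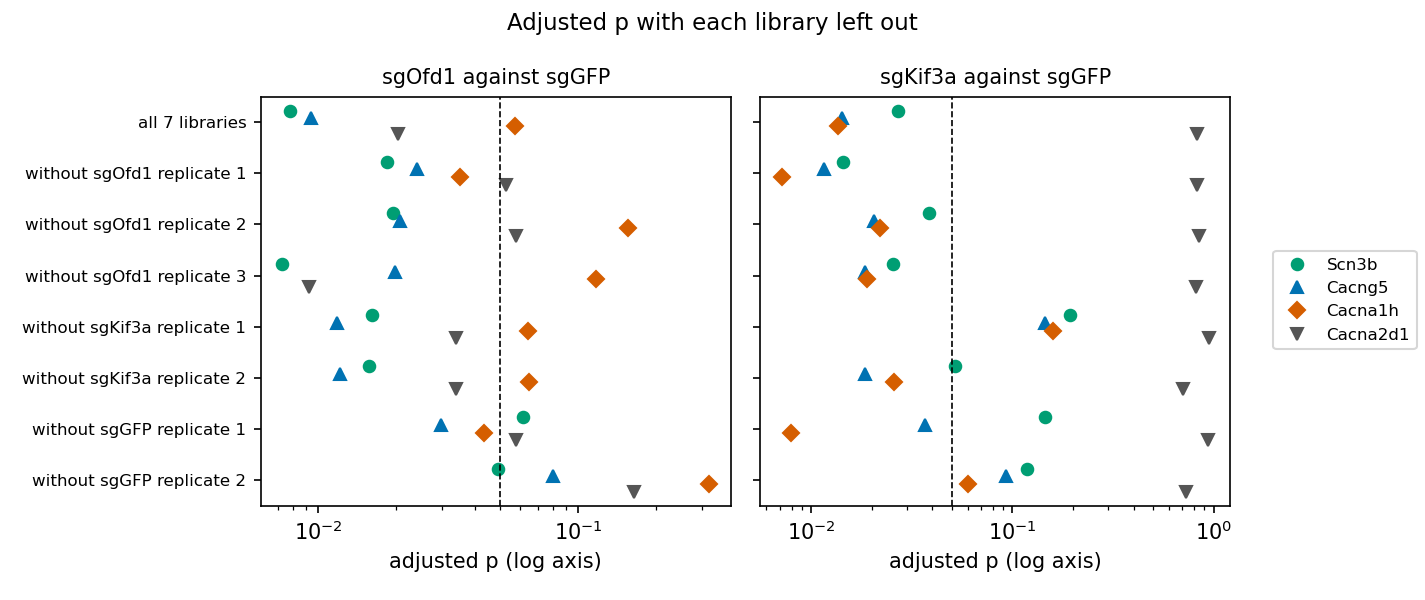
Adjusted p (log axis) of 4 channel genes in sgOfd1 (left) and sgKif3a (right) against sgGFP, with all 7 libraries in the first row and 1 library left out in each row under it; the dashed line is 0.05. Each plotted gene called with all libraries crosses the line in at least 1 row.

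A list of 28 genes that bind or regulate these channels or form the sodium leak channel, with the REST repressor and its corepressors, was drawn up, and 24 were tested. It was drawn up with earlier results of these data known. In sgOfd1 5 of 24 changed (20.8%), 1 higher and 4 lower, beside 11.7% of all genes. In sgKif3a 6 of 24 changed (25%), 2 higher and 4 lower, beside 16.4% of all genes. Because of how the list was chosen, no excess over all genes can be read from these shares. Between sgOfd1 and sgKif3a 0 were called (edgeR, with 2 at an unadjusted p under 0.05; DESeq2 also called 0). In both comparisons with sgGFP, fewer partners were called without either sgGFP replicate, and in sgKif3a also without either sgKif3a replicate. Fewer of all genes were called in those fits as well. DESeq2 called 4 partners in sgKif3a with all libraries, beside 2167 of all genes. The REST repressor, which keeps neuronal genes such as sodium channels off in other cells, and its 3 corepressors were not called in sgOfd1 or sgKif3a, with Rest at 32.2 to 39.4 CPM in sgOfd1, 35.4 to 37.4 CPM in sgKif3a and 37.4 to 37.9 CPM in sgGFP.

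Among sodium channel partners, Fgf12, a cytosolic factor that binds the tail of sodium pores, was higher with both guides. It had 7.92, 5.11 and 4.99 CPM in sgOfd1, 8.37 and 7.08 CPM in sgKif3a, and 3.24 and 2.85 CPM in sgGFP. The log2 fold change was 0.98 (SE 0.227, adjusted p = 0.0194, edgeR) in sgOfd1 and 1.34 (SE 0.239, adjusted p = 0.00373, edgeR) in sgKif3a. The sgOfd1 call was lost without sgGFP replicate 1 (0.0672) or sgGFP replicate 2 (0.106), and the sgKif3a call without sgKif3a replicate 1 (0.0604). Ank2, an ankyrin that anchors channels to the spectrin skeleton, was called lower in sgOfd1 (adjusted p = 0.0262, edgeR) and lost the call without sgGFP replicate 1 (0.0766), sgGFP replicate 2 (0.267), sgOfd1 replicate 1 (0.0666) or sgOfd1 replicate 2 (0.0617). No other sodium channel partner was called in sgOfd1 or sgKif3a in the main edgeR fit. Fgf11 passed in sgOfd1 in DESeq2, with all genes of 1 or more reads tested and without sgOfd1 replicate 2.

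Among calcium channel partners, Cabp1, a calmodulin-like protein that binds calcium pores, fell with both guides. It had 1.43, 3.44 and 3.81 CPM in sgOfd1, 1.25 and 3.95 CPM in sgKif3a, and 12.8 and 13.3 CPM in sgGFP. The log2 fold change was −2.18 (SE 0.365, adjusted p = 0.00426, edgeR) in sgOfd1 and −2.38 (SE 0.421, adjusted p = 0.00370, edgeR) in sgKif3a, the sgKif3a call being lost without sgKif3a replicate 1 (0.0508). Rimbp2, which links calcium pores to the presynaptic release site, had 8.47, 11.7 and 11.2 CPM in sgOfd1, 8.72 and 9.09 CPM in sgKif3a, and 14.5 and 12.7 CPM in sgGFP. It fell in sgKif3a (log2 fold change −0.62, SE 0.160, adjusted p = 0.0243, edgeR) and was not called in sgOfd1 (−0.39, SE 0.143, adjusted p = 0.105, edgeR). The sgKif3a call was lost without sgGFP replicate 1 (0.156), sgKif3a replicate 1 (0.159) or sgKif3a replicate 2 (0.0825).

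Nalcn, the pore of the sodium leak channel, had 11.2, 10.05 and 12.4 CPM in sgOfd1, 10.8 and 12.7 CPM in sgKif3a, and 16.9 and 18.8 CPM in sgGFP. It fell in sgOfd1 (log2 fold change −0.67, SE 0.123, adjusted p = 0.00636, edgeR) and in sgKif3a (−0.61, SE 0.135, adjusted p = 0.0119, edgeR). The calls were lost without sgGFP replicate 2 (0.0559 in sgOfd1, 0.0800 in sgKif3a) or, in sgKif3a, sgKif3a replicate 1 (0.128). Fam155a, an auxiliary of the leak channel, had 6.45, 15.6 and 13.7 CPM in sgOfd1, 10.4 and 15.2 CPM in sgKif3a, and 26.9 and 26.3 CPM in sgGFP. Its log2 fold change in sgOfd1 was −1.16 (SE 0.268, adjusted p = 0.0189, edgeR), lost in DESeq2 (0.0607) and without sgGFP replicate 1 (0.0557). In sgKif3a Fam155a was called lower (adjusted p = 0.0333, edgeR) and lost the call in DESeq2 (0.129) and without sgGFP replicate 1 (0.0812), sgGFP replicate 2 (0.0577), sgKif3a replicate 1 (0.262) or sgKif3a replicate 2 (0.0611). Unc79, a large auxiliary, had 2.17, 2.39 and 1.85 CPM in sgOfd1, 2.37 and 2.06 CPM in sgKif3a, and 1.23 and 1.101 CPM in sgGFP. Every library with an Ofd1 or Kif3a guide lay above both controls. In sgOfd1 the log2 fold change was 0.87 (SE 0.260) and did not pass (adjusted p = 0.0540, edgeR). Unc79 passed there with a replicate block, under library totals (0.0459) and under filterByExpr (0.0390). It also passed with all genes of 1 or more reads tested (0.0475) and without sgOfd1 replicate 3 (0.0437). The range was 0.0294 to 0.240 over 14 settings. In sgKif3a it passed (log2 fold change 0.93, SE 0.278, adjusted p = 0.0435, edgeR). That call was lost with only the 2 groups in the fit (0.0626), in DESeq2 (0.174) and without either sgGFP, either sgKif3a or sgOfd1 replicate 2 library, in a range of 0.0562 to 0.228 over those 5.

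**Figure D5:**
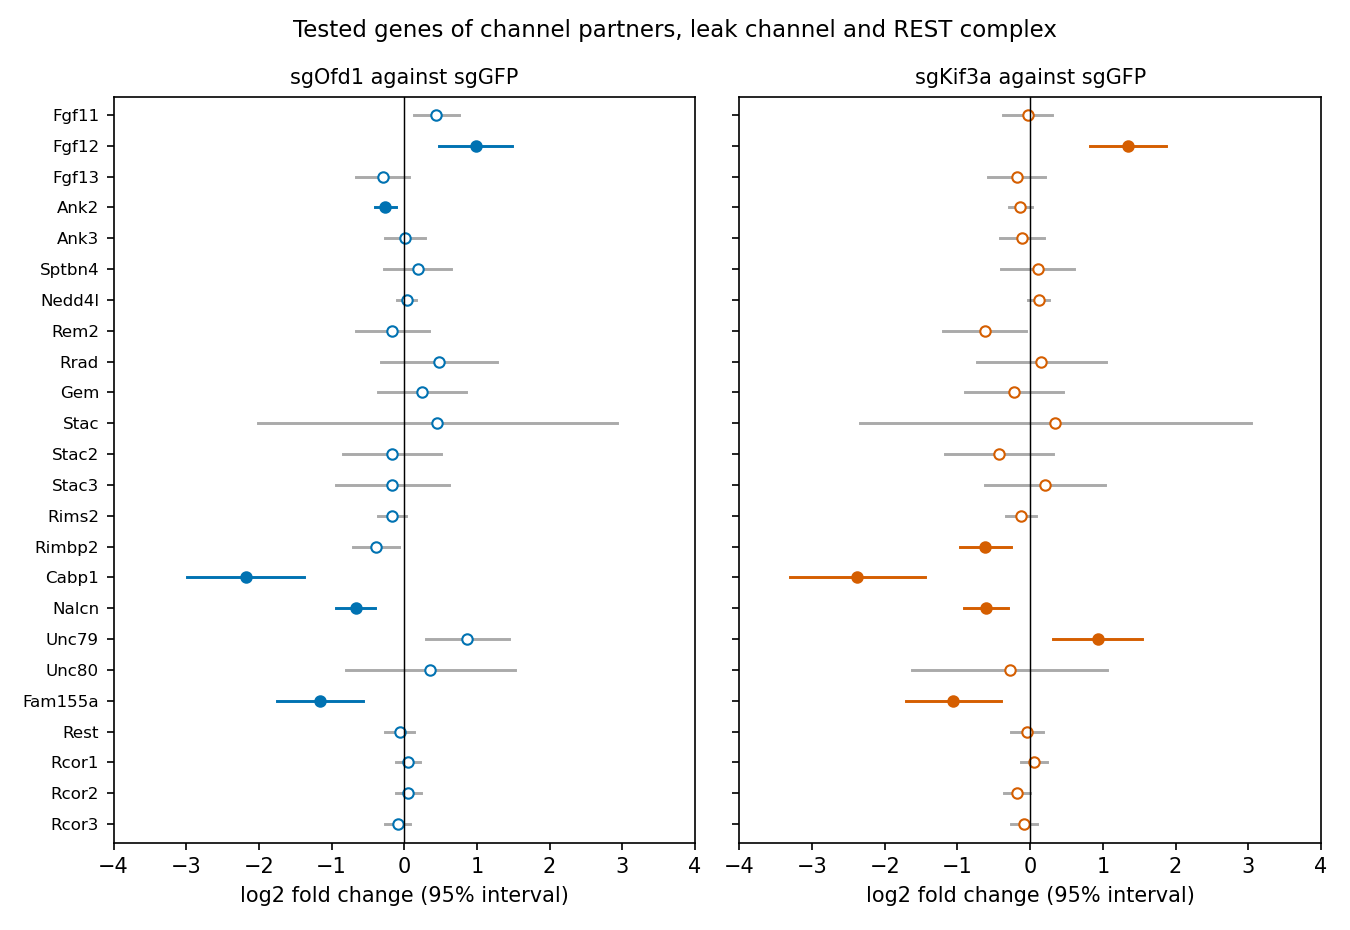
Log2 fold change with its 95% interval for the 24 tested partner, leak channel and REST complex genes in sgOfd1 (left) and sgKif3a (right) against sgGFP, with filled points for genes that passed the test. Fgf12 lies to the right and Cabp1, Nalcn and Fam155a to the left of 0 with both guides.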

How the data were processed

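RNA-seq counts of reads per gene were deposited by the authors as 1 table for 7 libraries. Per the labels' protocols, libraries were made with a stranded mRNA kit from 500 ng of total RNA and read as single 75-base reads. STAR, DESeq2 and mm9 are named in the submitters' processing notes; the counter, annotation and strand setting are not stated in the labels or the file. The series text counts 3 GFP replicates; 2 were analysed here.

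Counts were fitted for all 14588 genes with a summed count of 10 or more in edgeR 4.0.16 (R 4.3.3; TMM factors, group means, quasi-likelihood test, 4 residual degrees of freedom), with p-values adjusted by Benjamini-Hochberg over all of them. The fit was checked on simulated data. Alternatives were RLE factors, library totals, filterByExpr, a summed count of 1, DESeq2 1.42.0, only the compared groups, a replicate block and leaving out each library; a group left with 1 library is then assumed to vary like the others. Exon lengths came from GENCODE M21 (GRCm38) and promoter windows from RefSeq (GRCm38.p6).

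Members and lists were chosen with earlier results of these data known. Called members are given in every library, uncalled members at 5 CPM or more by level, and called partners with up to 3 per direction in full; results of some members are counted but not reported here.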

Additional observations from a re-analysis of the deposited data

How the results depend on the processing

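None of the channel or partner calls made with all libraries changed direction in the 14 settings. With a replicate block, channel calls were 7 in sgOfd1 against sgGFP, 8 in sgKif3a against sgGFP, 1 in sgOfd1 against sgKif3a and 9 for any difference, and partner calls were 9 in sgOfd1 against sgGFP and 1 in sgOfd1 against sgKif3a. Calls over all tested genes rose as well. With the block they were 3575, 3712, 177 and 4041 in the order of the channel calls, beside 1702, 2390, 15 and 1879 without it. Same-numbered libraries deviated together only in part (correlations 0.211 and 0.249 for sgOfd1 with sgGFP, 0.0116 for sgKif3a with sgGFP, 0.283 and 0.210 for sgOfd1 with sgKif3a). The main design used group means without the block, and these correlations do not settle which design is right. Testing genes with a summed count of 1 or more gave 7 channel calls in sgOfd1 against sgGFP and 1 in sgOfd1 against sgKif3a. Calls over all genes were then 2170 and 80. With only the compared groups fitted, sgKif3a against sgGFP gave 7 channel calls, beside 2953 over all genes. DESeq2 gave 1 in sgOfd1 against sgKif3a, beside 90 over all genes. Leaving out 1 library at a time gave 1 to 6 channel calls in sgOfd1 against sgGFP, 0 to 7 in sgKif3a against sgGFP, 0 between the guides and 1 to 6 for any difference. Partner calls then ran from 2 to 7 in sgOfd1 against sgGFP and from 0 to 6 in sgKif3a against sgGFP. The fewest came without a control or sgKif3a replicate 1: without sgGFP replicate 2, 1 channel gene was called in sgOfd1 and 0 in sgKif3a. Fits without a library rest on fewer samples, and calls over all tested genes moved between these fits as well. The 9 genes under 1 CPM have wide intervals, and depth limits what could be detected for them.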

Other observations

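These values were picked out after they were seen. Of the 5 channel genes with 1 to 9 summed reads, 4 (Cacna1f, Scn2b, Scn4b and Scn7a) had reads in sgGFP replicate 1 alone, with 3 reads for Cacna1f and 1 for each of the others. Over all 24047 genes, 320 had reads in that library alone and 106 in sgGFP replicate 2 alone. The share among all genes with 1 to 9 summed reads was not computed, so whether 4 of 5 is unusual cannot be judged. The sum of the microglia and macrophage markers was also highest in sgGFP replicate 1. Not every marker was: Cd68 had 3.29 CPM there and 3.72 CPM in sgOfd1 replicate 2.

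Gli1, a direct target of Hedgehog signalling, ordered the 7 libraries from 167 CPM (sgOfd1 replicate 1) through 201 (sgKif3a replicate 1), 265 (sgOfd1 replicate 3), 310 (sgKif3a replicate 2), 325 (sgOfd1 replicate 2) and 427 (sgGFP replicate 1) to 476 CPM (sgGFP replicate 2). Cacng4 had 14.5, 17.0, 18.2, 20.1, 21.6, 23.2 and 26.3 CPM in that order of libraries. Of all tested genes, 39 other than Gli1 had that order (0.267%) and 32 the reverse.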
